A study of Mus musculus with 24 samples.

Results

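The genes described here encode the enzymes that hydroxylate collagen chains in the endoplasmic reticulum and crosslink collagen outside the cell. They were picked by symbol for their role in the collagen pathway, with earlier results of these data known, and are 10 of the 55487 genes listed: P4ha1, P4ha2, P4ha3, P4hb, Plod1, Plod2, Plod3, Lox, Loxl1 and Loxl2. All 10 were among the 14541 genes tested, those with normalized counts of 10 or more in 6 or more of the 24 libraries. The RNA came from myotubes of C2C12, a wild-type mouse skeletal muscle cell line, at day 5 of differentiation under 5 % O2. Myotubes were then kept for 2 h at 5 % or 1 % O2. They were left unstimulated (groups 5 % CTRL and 1 % CTRL) or then received repeated short bouts of electrical stimulation (groups 5 % STIM and 1 % STIM). There were 6 biological replicates in each of the 4 groups. All groups derive from this 1 cell line. The methods state that medium was replaced before and after stimulation. Whether control cultures had the same changes is not given in the sources used here, so medium change and stimulation cannot be told apart. The paper describes unstimulated myotubes after 2 h of exposure, with stimulation following that period. Whether controls were kept on until the stimulated cultures were harvested is not given. Longer time at the set O2 level therefore cannot be told apart from stimulation either.

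Collagen chains are modified while they fold. Prolyl 4-hydroxylase, a complex of catalytic α subunits (P4ha1, P4ha2, P4ha3) with the β subunit protein disulfide isomerase (P4hb), hydroxylates prolines and so stabilises the triple helix. Lysyl hydroxylases (Plod1, Plod2, Plod3) hydroxylate lysines, of which Plod2 acts mainly on the telopeptides at the chain ends and Plod3 also adds sugars to hydroxylysine. These hydroxylases need O2, iron, 2-oxoglutarate and ascorbate. After secretion, the copper-dependent lysyl oxidases (Lox, Loxl1, Loxl2) oxidise lysines and hydroxylysines, which then form crosslinks. Several of these genes, P4ha1, P4ha2, Plod2 and Lox among them, are textbook targets of hypoxia-inducible factors (HIF) in other cells.

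In GRCm38 (GENCODE M21), the α subunit genes lie at chr10:59323296-59373304 (P4ha1, + strand), chr11:54100095-54131665 (P4ha2, + strand) and chr7:100285520-100319699 (P4ha3, + strand), and P4hb at chr11:120560298-120573253 (- strand). The lysyl hydroxylase genes lie at chr4:147909753-147936767 (Plod1, - strand), chr9:92542223-92608428 (Plod2, + strand) and chr5:136987019-136996648 (Plod3, + strand). Values are estimated counts of the reads that come from the transcripts of each gene.

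HIF binds DNA at a short core, so the 250 bases upstream of an annotated transcript start are shown for the 3 α subunits, whose transcripts differed in direction at 1 % O2 as given further on. Entries were found in the RefSeq promoter table (GRCm38.p6) for 6 of the 10 genes, namely P4ha1, P4ha2, P4ha3, P4hb, Plod1 and Plod3. Capitals mark ACGTG or GCGTG on either strand, so that CACGT and CACGC are matches on the other strand. The windows lie at chr10:59323046-59323295, chr11:54100674-54100923 and chr7:100285270-100285519, all on the + strand. That of P4ha2 lies inside the gene span given above, since it precedes a later transcript start than the first one annotated.
P4ha1: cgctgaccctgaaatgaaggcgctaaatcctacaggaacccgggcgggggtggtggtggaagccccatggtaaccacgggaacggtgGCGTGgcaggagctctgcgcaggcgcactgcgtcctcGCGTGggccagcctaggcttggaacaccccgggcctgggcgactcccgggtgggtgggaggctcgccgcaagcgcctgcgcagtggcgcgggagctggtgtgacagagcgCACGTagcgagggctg
P4ha2: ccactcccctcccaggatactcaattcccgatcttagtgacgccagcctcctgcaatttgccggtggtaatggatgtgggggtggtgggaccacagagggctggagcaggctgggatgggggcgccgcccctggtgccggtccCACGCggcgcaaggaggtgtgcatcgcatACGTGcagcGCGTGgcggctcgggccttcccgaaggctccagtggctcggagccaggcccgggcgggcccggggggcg
P4ha3: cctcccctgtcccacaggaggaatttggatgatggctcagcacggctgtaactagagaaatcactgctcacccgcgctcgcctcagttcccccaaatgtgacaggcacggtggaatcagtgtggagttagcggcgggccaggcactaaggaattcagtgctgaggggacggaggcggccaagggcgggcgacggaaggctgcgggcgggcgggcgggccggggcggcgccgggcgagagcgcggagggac
The windows of P4ha1 and P4ha2 each held 3 matches, and that of P4ha3 held 0. P4hb had 2 matches, Plod1 had 1 and Plod3 had 4. Among 32851 windows of this length, 38.6 % held at least 1 match, 16.7 % at least 2, 6.58 % at least 3 and 2.58 % at least 4. These matches describe letters in the windows only.

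Libraries held 26541858 to 28173745 reads, as estimated counts summed over the listed genes. The defining markers of myotubes were abundant, with a sum over 10 genes of 398857 to 509754 normalized counts per library. Fibroblasts also make collagen, and of 7 fibroblast markers Thy1 and Lum averaged under 4 normalized counts in each group, whereas Pdgfrb averaged 8536 in 5 % CTRL. The summed fibroblast markers were 9347 to 10886 in 5 % CTRL and 8180 to 9056 in 1 % CTRL, without overlap, and their part in the results was not tested. The sum of 4 adipocyte markers was 209 to 294 in 5 % CTRL and 167 to 202 in 1 % CTRL, nearly all of it Lpl, and Plin1 was listed at 0 in all libraries. The sum of 4 macrophage markers did not exceed 89.1. The exposure showed in Slc2a1, a HIF-responsive glucose transporter, which averaged 2813 ± 117 in 5 % CTRL and 12888 ± 269 in 1 % CTRL (SD, n = 6). Of the stimulation checks, Nr4a3 averaged 70.1 in 5 % CTRL and 102 in 5 % STIM (log2 fold change 0.53, adjusted p = 0.000784, limma), whereas Fos averaged 108 and 96.4 (adjusted p = 0.403, limma). Pdk1, Bnip3 and Vegfa were further hypoxia checks. Of all 6 checks, 5 were called higher in 1 % CTRL than in 5 % CTRL (29.4 % of all tested genes), so a stimulation check was among them. In 1 % STIM against 1 % CTRL 1 was higher and 4 lower (11.5 % and 10.8 % of all). Replicate 1 of 1 % CTRL stood apart from the others of its group in its trend of expression with gene length (slope 0.0945 in log2 deviation per doubling of exon length, others -0.0367 to -0.0125), and values of Plod2, Lox and Loxl1 that rest on it are also given without it.

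In resting myotubes at 5 % O2, levels were compared between genes as normalized counts per kb of exon. Lox, the main crosslinking oxidase, was the most abundant of the 10 at 12201 ± 457 (SD, n = 6), followed by P4hb at 6912 ± 196 and P4ha1 at 2753 ± 112. The ranges over libraries of these 3 did not overlap. Plod2 (1010 ± 39.9), Loxl1 (957 ± 96.1) and Plod1 (948 ± 31.8) came next, and their ranges overlapped. Plod3 (740 ± 22.4), Loxl2 (685 ± 16.01), P4ha2 (604 ± 18.6) and P4ha3 (155 ± 11.2) closed the order without overlap between neighbours. P4ha1 thus made up 78.4 % ± 0.994 of the summed α subunit level, P4ha2 17.2 % ± 0.947 and P4ha3 4.42 % ± 0.320. Lox made up 88.1 % ± 1.01 of the 3 oxidases. The order, its overlaps and the shares rest on the union of exons as length. For P4ha2 this union is 6239 bases and the longest transcript 3060, which would raise its level, and shares on that length are not given. With the longest transcript the log2 ratio of P4ha1 to P4ha2 was 1.18 in place of 2.19, and that of Plod2 to Plod1 was -0.075 in place of 0.09.

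**Figure D1:**
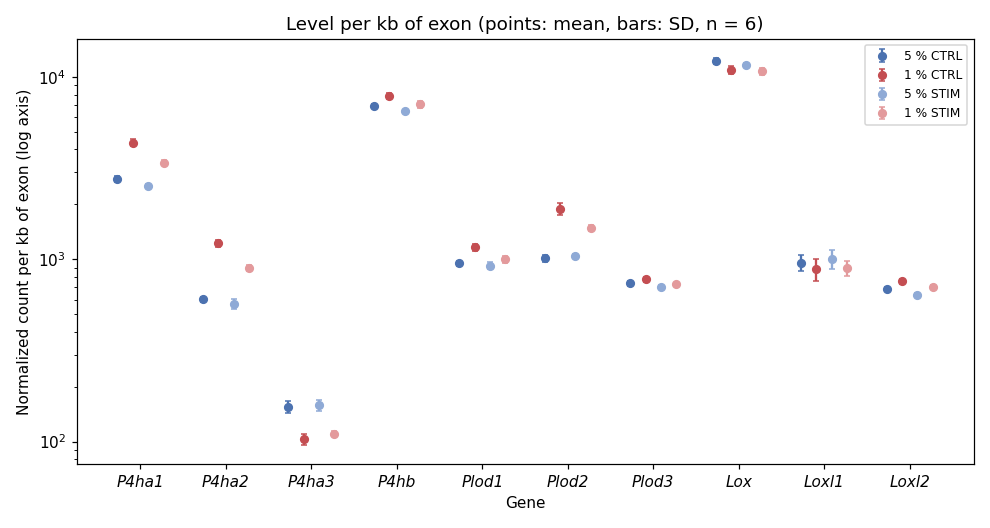
Level of each gene per kb of exon on a log axis, with points for the mean and bars for the SD of 6 libraries in each of the 4 groups. Lox lies highest at 12201 in 5 % CTRL and P4ha3 lowest at 155, and the points of P4ha1, P4ha2 and Plod2 separate by O2.

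The first comparison asked what 2 h at 1 % O2 did to these transcripts in resting myotubes. Of the 10 genes, 7 were called higher in 1 % CTRL than in 5 % CTRL and 2 lower at a Benjamini-Hochberg adjusted p under 0.05, where 29.4 % of all tested genes were called higher and 30.5 % lower. P4ha2, Plod2 and P4ha1 rose most, by 2.03-fold, 1.87-fold and 1.58-fold. P4ha3 and Lox fell. Loxl1 was not called, but was called lower with the length trend of each library as a covariate (log2 -0.17, adjusted p = 0.0354, limma). The median log2 fold change was 0.16 over the 10 genes and 0.0015 over all tested genes. In bulk RNA, fewer cells of a type and less RNA per cell cannot be told apart.

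**Figure D2:**
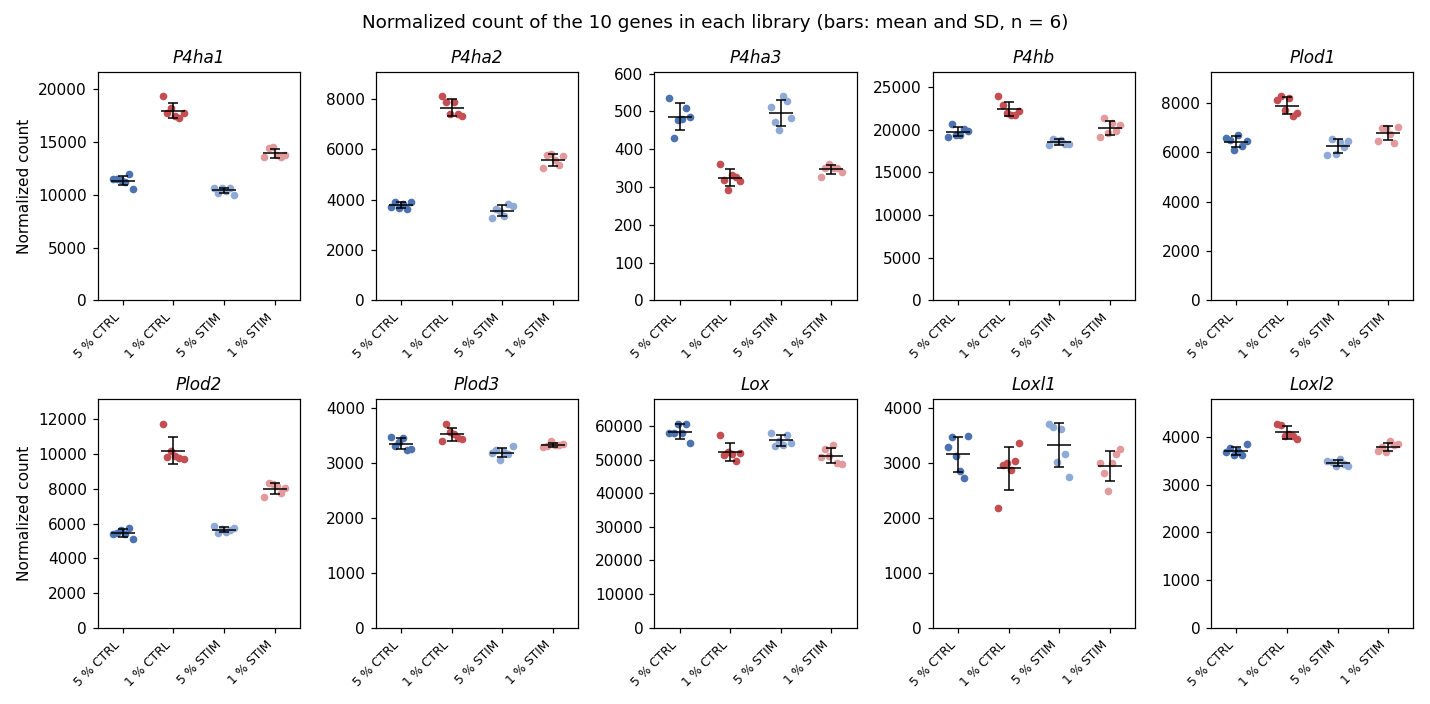
Normalized count of each of the 10 genes in each of the 24 libraries (points), with the mean and SD of 6 libraries per group as bars and axes from 0. P4ha1, P4ha2 and Plod2 are highest in 1 % CTRL and intermediate in 1 % STIM, P4ha3 is lower in both 1 % O2 groups, and Loxl1 overlaps throughout.

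Among the proline hydroxylase α subunits, P4ha1 ranged in normalized counts from 10525 to 11908 in 5 % CTRL (median 11416) and from 17281 to 19283 in 1 % CTRL (median 17720). All libraries of 1 % CTRL lay above all of 5 % CTRL, and the log2 fold change was 0.66 ± 0.03 (SE, adjusted p = 2.28e-19, limma). P4ha2, the second catalytic isoform, ranged from 3624 to 3910 (median 3763) at 5 % O2 and from 7298 to 8091 (median 7615) at 1 % O2. Its groups did not overlap either, with a log2 fold change of 1.02 ± 0.04 (adjusted p = 2.17e-22, limma). P4ha3, the least abundant isoform, moved the other way, from 430 to 536 (median 483) down to 293 to 361 (median 322). It fell by 0.58 ± 0.06 on the log2 scale without overlap (adjusted p = 5.71e-11, limma).

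The β subunit had a smaller log2 fold change than P4ha1 and P4ha2, and their confidence intervals did not overlap. P4hb ranged from 19149 to 20690 (median 19653) in 5 % CTRL and from 21736 to 23897 (median 22086) in 1 % CTRL. The groups did not overlap, and the log2 fold change was 0.18 ± 0.03 (adjusted p = 1.68e-06, limma). The log2 ratio of P4ha1 to P4hb per kb was -1.33 ± 0.07 in 5 % CTRL and -0.85 ± 0.03 in 1 % CTRL (SD, n = 6), so P4hb exceeded P4ha1 by 2.51-fold and 1.80-fold. The log2 ratio of P4ha1 to P4ha2 went from 2.19 ± 0.10 to 1.83 ± 0.06. Neither pair of groups overlapped, and these ratios were not tested.

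Of the lysyl hydroxylases, Plod2 ranged from 5097 to 5719 (median 5428) in 5 % CTRL and from 9726 to 11760 (median 9871) in 1 % CTRL. The groups did not overlap, and the log2 fold change of 0.90 ± 0.04 (adjusted p = 1.15e-20, limma) was 0.86 without replicate 1 of 1 % CTRL. Plod1 ranged from 6082 to 6671 (median 6458) and from 7472 to 8251 (median 7892), again without overlap, with a log2 fold change of 0.30 ± 0.03 (adjusted p = 2.43e-09, limma). Plod3 moved little, from 3223 to 3464 (median 3334) to 3400 to 3708 (median 3487). Its groups overlapped, and its log2 fold change of 0.07 ± 0.03 (adjusted p = 0.0249, limma) lost its call when genes with low values were kept (adjusted p = 0.0503).

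The balance within the lysyl hydroxylases shifted in these libraries. Plod2 made up 37.4 % ± 1.34 of their summed level per kb in 5 % CTRL and 49.3 % ± 1.92 in 1 % CTRL (48.6 % ± 0.986 without replicate 1). Plod3 went from 27.4 % ± 0.573 to 20.3 % ± 1.06 and Plod1 from 35.1 % ± 1.09 to 30.4 % ± 1.03. Exons of Plod2 overlap those of the antisense gene Gm38391 by 346 bases, and exons of Plod3 overlap those of Znhit1 by 529 bases. The counting did not use strand, so reads in these stretches cannot be told apart.

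The lysyl oxidases, at chr18:52516067-52529867 (Lox, - strand), chr9:58287738-58313186 (Loxl1, - strand) and chr14:69609068-69695834 (Loxl2, + strand), did not move together. Lox ranged from 54809 to 60675 (median 57949) in 5 % CTRL and from 49427 to 57234 (median 51739) in 1 % CTRL. The highest value at 1 % O2, replicate 1, reached into the 5 % O2 range. Lox fell by 0.16 ± 0.03 on the log2 scale (adjusted p = 8.73e-05, limma), by 0.18 without that replicate, and by 0.08 when libraries were rescaled to the same total (adjusted p = 0.0308).

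Loxl1, which acts on elastic fibres, ranged from 2717 to 3481 in 5 % CTRL and from 2176 to 3350 in 1 % CTRL. The groups overlapped widely, and the log2 difference of -0.13 had a 95 % confidence interval of -0.33 to 0.08 (adjusted p = 0.272, limma). Without replicate 1 of 1 % CTRL the difference was -0.048. Loxl2 ranged from 3621 to 3847 (median 3686) and from 3953 to 4281 (median 4039), without overlap, with a log2 fold change of 0.15 ± 0.03 (adjusted p = 1.64e-05, limma). Its values are uncertain, since 43.6 % of its exon words of 75 bases also occur in other genes, mostly the near-identical Gm21451, which was listed at 0 in all libraries.

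The same O2 contrast in stimulated myotubes gave the same call for each of the 10 genes, with other libraries on both sides. Of the 10 genes, 7 were called higher in 1 % STIM than in 5 % STIM and 2 lower, where 29 % of all tested genes were called higher and 28.4 % lower. P4ha2 ranged from 3273 to 3819 (median 3592) in 5 % STIM and from 5237 to 5789 (median 5639) in 1 % STIM. Its groups did not overlap, and it rose 1.57-fold (log2 0.65 ± 0.04, adjusted p = 6.69e-17, limma). Plod2 ranged from 5452 to 5841 (median 5663) and from 7516 to 8311 (median 8091). It rose 1.42-fold, also without overlap (log2 0.51 ± 0.04, adjusted p = 7.77e-14, limma).

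P4ha1 ranged from 9994 to 10670 (median 10455) in 5 % STIM and from 13535 to 14543 (median 13738) in 1 % STIM, a 1.34-fold rise without overlap (adjusted p = 5.15e-14, limma). P4ha3 ranged from 450 to 540 (median 496) and from 326 to 361 (median 350), and fell by 0.52 ± 0.06 on the log2 scale without overlap (adjusted p = 1.02e-09, limma). The remaining calls were small in size. P4hb, Loxl2 and Plod1 rose by 0.12, 0.13 and 0.11 on the log2 scale, and Plod3 by 0.06. The Plod3 call was lost with a replicate block (adjusted p = 0.0552), and also when genes with low values were kept. Lox fell by 0.12 (adjusted p = 0.00151, limma), a call lost when libraries were rescaled to the same total (log2 -0.05, adjusted p = 0.140).

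Stimulation at 5 % O2 moved these genes little. Of the 10 genes, 0 were called higher in 5 % STIM than in 5 % CTRL and 3 lower, where 9.44 % of all tested genes were called higher and 12 % lower. P4ha1 fell by 0.12 ± 0.03 on the log2 scale (adjusted p = 0.00248, limma), with overlapping groups. Loxl2 fell by 0.10 ± 0.03 (adjusted p = 0.00547, limma) and P4hb by 0.09 ± 0.03 (adjusted p = 0.0183, limma), both without overlap. With libraries rescaled to the same total only P4ha1 of these 3 was called. The count of 0 higher genes was also 0 at an unadjusted p under 0.05 in limma and with edgeR, DESeq2 and limma voom, here as in the other comparisons with such a count. With the length trend as a covariate 1 gene was called higher here, Plod2 (log2 0.10, adjusted p = 0.00402, limma), and 4 lower. The myotube regulator Myog fell in the same comparison, from 30613 to 21265 (log2 -0.53, adjusted p = 7.19e-11, limma), and its part in the enzyme results was not tested.

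P4ha2, called in both O2 comparisons, had a log2 difference of -0.08 with a 95 % confidence interval of -0.16 to -0.01 (adjusted p = 0.0929, limma). That of Plod2 was 0.05, with an interval of -0.02 to 0.13 (adjusted p = 0.364, limma).

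Stimulation at 1 % O2 gave more calls. Of the 10 genes, 0 were called higher in 1 % STIM than in 1 % CTRL and 7 lower, where 11.5 % of all tested genes were called higher and 10.8 % lower. The median log2 fold change was -0.13 over the 10 genes and -0.0031 over all tested genes. P4ha2 fell by 0.46 ± 0.04 (adjusted p = 3.77e-12, limma), P4ha1 by 0.37 ± 0.03 (adjusted p = 1.06e-11, limma) and Plod2 by 0.35 ± 0.04 (adjusted p = 4.00e-09, limma) on the log2 scale. Without replicate 1 of 1 % CTRL the fall of Plod2 was smaller (log2 -0.30). In each of these 3 genes all libraries of 1 % STIM lay below all of 1 % CTRL and above all of 5 % STIM.

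Plod1 fell by 0.22 ± 0.03 (adjusted p = 3.81e-06, limma), P4hb by 0.15 ± 0.03 and Loxl2 by 0.11 ± 0.03, each without overlap. Plod3 fell by 0.08 ± 0.03 (adjusted p = 0.0336, limma). This call was lost when libraries were rescaled to the same total (adjusted p = 0.0984), and also when genes with low values were kept. P4ha3, Lox and Loxl1 were not called, with log2 differences of 0.10, -0.03 and 0.03 (-0.0057 for Lox and -0.050 for Loxl1 without replicate 1 of 1 % CTRL). Slc2a1 moved in the same direction, from 12888 to 8337 (adjusted p = 9.39e-17, limma).

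**Figure D3:**
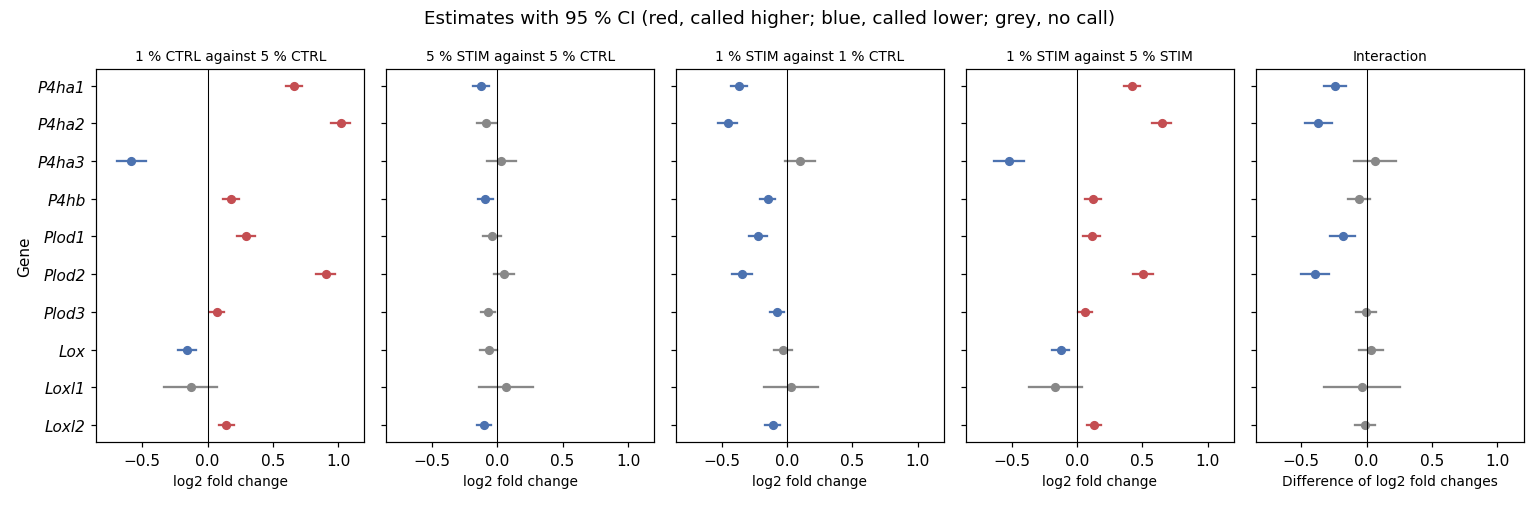
Log2 fold change of each of the 10 genes with its 95 % confidence interval in the 4 comparisons, and the interaction as the difference of log2 fold changes (red, called higher; blue, called lower; grey, no call). P4ha2 shows the largest rise, 1.02 in 1 % CTRL against 5 % CTRL, and 4 genes are called in the interaction panel, all below 0.

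The interaction was the response to stimulation at 1 % O2 minus that at 5 % O2. It tested whether these responses, with any effect of medium change or exposure time, differed. Of the 10 genes, 0 were called higher and 4 lower, where 5.88 % of all tested genes were called higher and 5.43 % lower. The estimate for Plod2 was -0.40 ± 0.05 (adjusted p = 1.47e-06, limma), or -0.36 without replicate 1 of 1 % CTRL, and that for P4ha2 -0.37 ± 0.05 (adjusted p = 3.31e-06, limma). P4ha1 followed at -0.24 ± 0.04 (adjusted p = 0.000146, limma) and Plod1 at -0.18 ± 0.05 (adjusted p = 0.00910, limma). All 4 calls held in each alternative run, including without replicate 1 of 1 % CTRL. The other 6 genes had estimates from -0.06 to 0.07. The interval was widest for Loxl1, from -0.33 to 0.25.

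**Figure D4:**
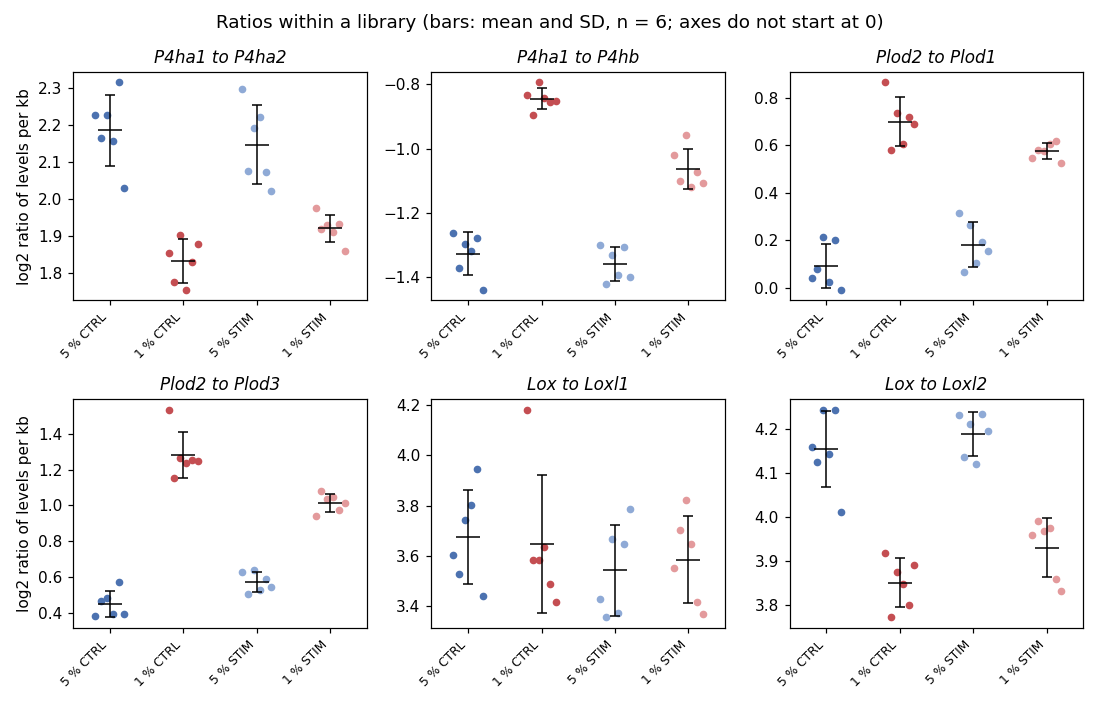
Log2 ratio of levels per kb within each library (points) for 6 pairs of genes, with the mean and SD of 6 libraries per group as bars, on axes that do not start at 0. The Plod2 to Plod3 ratio averages 0.45 and 0.57 in the control and stimulated groups at 5 % O2, and 1.28 (1.23 without replicate 1) and 1.01 in those at 1 % O2.

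Ratios within a library do not depend on how libraries are scaled. The log2 ratio of Plod2 to Plod1 per kb was 0.09 ± 0.09 at rest and 0.18 ± 0.09 after stimulation at 5 % O2, against 0.70 ± 0.10 (0.67 without replicate 1) and 0.57 ± 0.03 at 1 % O2 (SD, n = 6). Both groups at 1 % O2 lay above both groups at 5 % O2 without overlap. The log2 ratio of Lox to Loxl2 was 4.15 ± 0.09 and 4.19 ± 0.05 at 5 % O2 and 3.85 ± 0.06 and 3.93 ± 0.07 at 1 % O2 in the same order, again without overlap between O2 levels. The log2 ratio of Lox to Loxl1 lay between 3.54 and 3.68 in all groups, and the groups overlapped. It averaged 3.65 in 1 % CTRL and 3.54 there without replicate 1.

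Over the 24 libraries, the genes whose log2 values followed each enzyme most closely are given as a description, since the groups themselves set much of these correlations. P4ha1 was followed most closely by Egln1, an O2-sensing prolyl hydroxylase of HIF (Pearson r = 0.994), then Asph and Fgf11. P4ha2 was followed by Egln3, another HIF prolyl hydroxylase (r = 0.987), Tbl2 and Prdm1. Plod2 was followed by Ero1l, the oxidase that recharges protein disulfide isomerase (r = 0.993), Hk1 and Bcor. For P4hb the first was Ldha (r = 0.947), for Plod1 Gpi1 (r = 0.960) and for Loxl2 Vgll4 (r = 0.961). The first for P4ha3 was Epn2 (r = 0.970), for Lox Bmpr1a (r = 0.962), for Loxl1 Eif2b2 (r = 0.923) and for Plod3 Kif1c (r = 0.9003).

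The rest of the collagen pathway was read from 56 genes in 5 lists, of which 52 were tested. In 1 % CTRL against 5 % CTRL, 10 were called higher and 16 lower, where 29.4 % of all tested genes were called higher and 30.5 % lower. When libraries were rescaled to the same total, 19 were higher and 13 lower. That rescaling moved the share of calls that were higher over all genes from 49.0 % to 62.7 %, and the median of all genes from 0.0015 to 0.08. In 5 % STIM against 5 % CTRL 4 were higher and 2 lower (9.44 % and 12 % of all tested genes). In 1 % STIM against 1 % CTRL 6 were higher and 4 lower (11.5 % and 10.8 % of all). In 1 % STIM against 5 % STIM 7 were higher and 19 lower (29 % and 28.4 % of all), or 16 and 12 rescaled. Over all genes in that comparison, 50.4 % of calls were higher before the rescaling and 63.2 % after it. The interaction gave 2 higher and 3 lower (5.88 % and 5.43 % of all). No list was tested against these shares. In both O2 comparisons more of the called pathway genes were lower before the rescaling and more were higher after it.

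**Figure D5:**
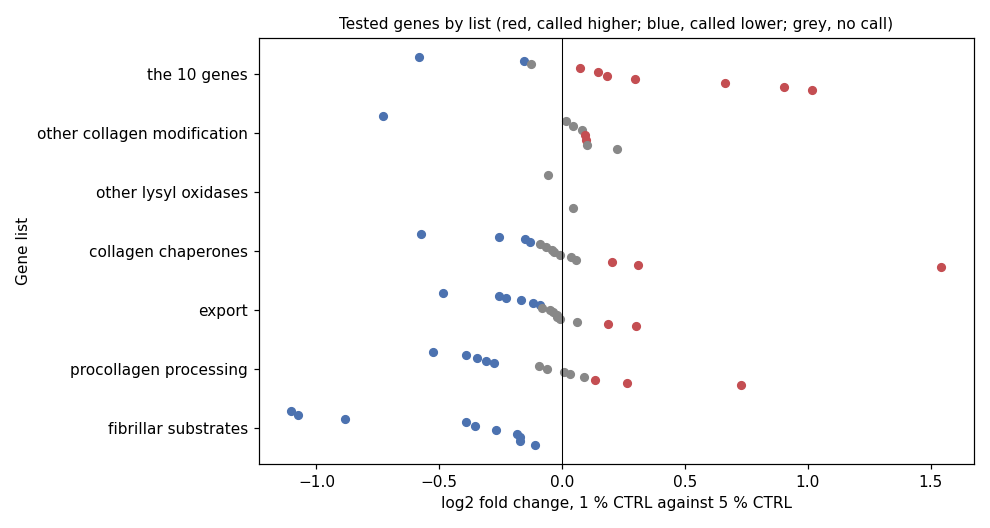
Log2 fold change in 1 % CTRL against 5 % CTRL for each tested gene, by list (red, called higher; blue, called lower; grey, no call). The 10 enzymes spread from -0.58 to 1.02, the fibrillar collagen chains all lie below 0, and the highest point among the chaperones is Ero1l at 1.54.

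Among other modifying enzymes 2 of 8 tested genes were higher in 1 % CTRL and 1 lower. Over all tested genes 29.4 % were called higher and 30.5 % lower. The prolyl 3-hydroxylase P3h1 and its partner cyclophilin B (Ppib) rose by 0.10 and 0.09 on the log2 scale, and P3h2 averaged 159 in 5 % CTRL and 97.7 in 1 % CTRL (log2 -0.73, adjusted p = 1.93e-06, limma). Neither of the other lysyl oxidases, Loxl3 and Loxl4, was called in that comparison. Loxl3 fell by 0.18 in 1 % STIM against 1 % CTRL (adjusted p = 0.00446, limma). Of 14 chaperones 3 were higher and 4 lower. Ero1l went from 3215 ± 202 to 9363 ± 621 (log2 1.54, adjusted p = 5.10e-26, limma) and Fkbp14 rose by 0.31, while the chaperone Hspa5 fell by 0.57 and Pdia5 by 0.26. Ero1l also had the largest interaction of the pathway genes, at -0.74 (adjusted p = 1.82e-11, limma).

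Export and processing genes moved in both directions in 1 % CTRL, where 29.4 % of all tested genes were called higher and 30.5 % lower. Of 15 export genes 2 were higher and 6 lower, with Creb3l2 up by 0.30, Sec23b up by 0.19, Sec24a down (log2 -0.48) and Sar1a down (log2 -0.26). Of 13 processing genes 3 were higher and 5 lower. Pcolce2, an enhancer of C-propeptide cleavage, rose by 0.26 and Efemp2, which helps to localise lysyl oxidase, by 0.13. The convertase gene Pcsk6 fell by 0.53 and Adamts2, the N-propeptidase, by 0.39. At 5 % O2, stimulation went with higher Ero1l (log2 0.17), Creb3l2 (0.23), Creb3l1 (0.13) and Fbln5 (0.16) and with lower Tmem38b (-0.18) and Efemp2 (-0.14).

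The fibrillar collagen chains, the main substrates of these enzymes, fell. All 10 tested fibrillar chains were called lower in 1 % CTRL than in 5 % CTRL, where 30.5 % of all tested genes were called lower. When libraries were rescaled to the same total, 7 of 10 were called lower. That setting called 9048 of all 14541 tested genes, 62.7 % of them higher. Col1a1 averaged 47681 ± 4218 and 42226 ± 1817, Col1a2 66594 ± 3918 and 59048 ± 2542, and Col3a1 170293 ± 8066 and 129630 ± 5623 (SD, n = 6). The largest falls were in Col27a1 (log2 -1.10) and Col24a1 (log2 -1.07). Over all tested genes in 5 % STIM against 5 % CTRL, limma called 9.44 % higher and 12 % lower. Of the 10 chains, 0 were called in either direction by limma, edgeR or DESeq2. At an unadjusted p under 0.05 in limma 0 were higher and 2 lower, and limma voom called 1 lower.

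Of 10 cofactor genes 2 were higher and 4 lower in 1 % CTRL, against 29.4 % higher and 30.5 % lower over all tested genes. The copper transporter Slc31a2 rose by 0.80 and the iron reductase Steap3 fell by 0.49, as did Idh2 by 0.21. Stimulation at 5 % O2 went with higher Idh1 (log2 0.23) and lower Atp7a, the copper pump that supplies lysyl oxidases (log2 -0.17, adjusted p = 0.0329, limma), a call lost with rescaled libraries. Of 8 uptake and breakdown genes 3 were higher and 3 lower. Timp3, a metalloproteinase inhibitor, went from 96467 to 38569 (log2 -1.32) and Mmp2 fell by 0.34, while Timp2 rose by 0.12 and Mmp14 by 0.10. Of 12 upstream regulators 2 were higher and 8 lower. Hif1a rose by 0.33 and Smad3 by 0.51, while Ccn2 went from 47038 to 13594 (log2 -1.79) and Tgif1 from 2268 to 1127 (log2 -1.01). In 5 % STIM against 5 % CTRL, Tgif1 (log2 0.47) and Smad7 (0.30) were higher and Ccn2 (-0.34) was lower.

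Cell state markers moved with O2 and with stimulation. Over all tested genes, 29.4 % were called higher and 30.5 % lower in 1 % CTRL against 5 % CTRL. With stimulation these shares were 9.44 % and 12 % at 5 % O2, and 11.5 % and 10.8 % at 1 % O2. Of 10 myotube markers 0 were called higher and 7 lower in 1 % CTRL (1 and 4 rescaled), with Myog from 30613 to 19439 and Actn2 from 10785 to 7979. Of 7 markers of undifferentiated or cycling myoblasts 3 were higher and 3 lower, with Top2a up by 0.74, Pax7 up by 0.69 and Ccnb1 down (log2 -0.50). All 4 tested fibroblast markers were lower, among them Pdgfra (log2 -0.48) and Dpt (log2 -0.41), as was the 1 tested adipocyte marker, Lpl (log2 -0.43). With stimulation, 0 myotube markers were higher and 3 lower at 5 % O2 (Myog, Myh3 and Myh8, 2 rescaled), and 0 were higher and 2 lower at 1 % O2 (Myog, from 19439 to 12522, and Mymk). Of the 7 myoblast markers, 2 were higher and 1 lower with stimulation at 5 % O2, and 1 was higher and 2 lower at 1 % O2. Those at 5 % O2 were Myf5 (log2 0.38) and Ccnb1 (log2 0.36), both higher, and Pax7 (log2 -0.38), lower. Of the 4 tested fibroblast markers, Pdgfrb was lower at 5 % O2 (log2 -0.21) and Pdgfra higher at 1 % O2 (log2 0.53). Myh3 and Mymk, and the genes given at 1 % O2, were chosen with their values in view. Their part in the enzyme results was not tested.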

How the data were processed

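Libraries of stranded mRNA from 24 cultures (4 groups of 6, taken from the labels) were sequenced from a single end. The authors aligned reads to GRCm38 with STAR 2.5.4b and estimated gene counts with RSEM 1.3.0 at default settings, after FastQC 0.11.7, per the labels and methods. The authors deposited this as an expression signal, each count divided by its library's DESeq2 size factor, which removes differences in depth. A second deposited table holds the authors' own comparisons (log2 fold changes, p-values and calls) and was not used. Every column of values was mapped to a sample. The smallest step of each library gave back its estimated counts, called reads here, with 100 % of values whole within 0.01 read.

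Genes with at least 10 normalized counts in at least 6 libraries were tested. Their log2(normalized count + 1) entered 1 limma fit (version 3.58.1, R 4.3.3) of the 4 groups with a trended, robust variance and Benjamini-Hochberg adjustment over 14541 genes, and an adjusted p under 0.05 was called. Fold changes are on this scale. The script was tested on simulated data. Depth leaves counting error small for the enzymes, the lowest of which averaged 324 normalized counts in a group. The p-values measure the spread between cultures of 1 cell line.

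Lengths are unions of exons from GENCODE M21, which held 55227 of the 55487 genes. Ratios used log2 levels per kb. The enzymes and gene lists were chosen with earlier results of these data known. Named besides the 10 enzymes were, per list, up to 2 called genes with the largest rise and 2 with the largest fall averaging 100 or more in the higher group, in 1 % CTRL and 5 % STIM each against 5 % CTRL, the substrate and exposure genes, and the genes most like each enzyme, together with Loxl3, Loxl4 and the largest pathway interaction, which were chosen after their values were seen. A gene that this rule names is not reported here.

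Alternatives were a replicate block, testing without the filter, a pseudocount of 10, libraries rescaled to the same total, an adjusted p under 0.01, edgeR 4.0.16, DESeq2 1.42.0 and limma voom on whole reads, leaving out replicate 1 of 1 % CTRL, and the longest transcript as length. Chosen after seeing the data were the length trend of each library as a covariate, the sum of Loxl2 and Gm21451, and level ratios and shares in 1 % CTRL without replicate 1.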

Additional observations from a re-analysis of the deposited data

Results flagged for a closer look

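Of 64 sets of 6 libraries (10 genes and 6 ratios in 4 groups), 4 held a value far from the other 5 by Dixon's criterion, which chance alone meets in a small share of sets. All 4 were replicate 1 of 1 % CTRL. Its normalized count was 11760 for Plod2 (others 9726 to 10190) and 57234 for Lox (others 49427 to 52155). Its log2 ratio per kb was 4.18 for Lox to Loxl1 (others 3.42 to 3.63) and 1.54 for Plod2 to Plod3 (others 1.15 to 1.27). These ratios reuse its Lox and Plod2 values, so the 4 sets are not separate observations. This library also had the steepest trend with gene length in its group, and the part of that trend in these values was not tested.

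The response to stimulation differed between O2 levels for 4 genes by the interaction in limma. Any effect of medium change or exposure time cannot be told apart from stimulation in this difference. The difference, 1 % O2 minus 5 % O2 on the log2 scale, was -0.24 for P4ha1, -0.37 for P4ha2, -0.18 for Plod1 and -0.40 for Plod2.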

How the results depend on the processing

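Of 505 alternative values for 50 estimates (10 enzymes in 5 comparisons), 483 kept direction and call, 12 lost the call, 5 gained one and 5 reversed. Some of these could not have differed. The 5 from the sum of Loxl2 and Gm21451 equal Loxl2, since Gm21451 was listed at 0, and leave its shared sequence untested. The 50 at an adjusted p under 0.01 reuse the main fit and could only keep or lose a call (46 and 4). Calls were gained by Plod3 in 5 % STIM against 5 % CTRL (lower, with DESeq2, with the length trend and without replicate 1 of 1 % CTRL), and with the length trend by Plod2 there (higher) and by Loxl1 in 1 % CTRL against 5 % CTRL (lower). The counts of enzymes called stayed within 1.5 times in all settings except for 5 % STIM against 5 % CTRL, where 3 became 1 with libraries rescaled to the same total and 5 (1 higher and 4 lower) with the length trend as a covariate. Over all 14541 tested genes the calls there went from 3115 to 2993 and 3561 in these settings. Pathway genes called in the interaction went from 5 to 2 at an adjusted p under 0.01 and to 9 without replicate 1 of 1 % CTRL. Over all tested genes, calls in the interaction went from 1645 to 830 and 2316 in these settings. The reversed estimates were uncalled in both fits. With the length trend they were -0.013 for Lox and 0.10 for Loxl1 in the interaction and -0.039 for Loxl1 in 5 % STIM against 5 % CTRL. Without replicate 1 of 1 % CTRL they were -0.050 for Loxl1 in 1 % STIM against 1 % CTRL and 0.0019 for Loxl2 in the interaction. The longest transcript in place of the exon union changed log2 ratios in 5 % CTRL to 1.18 for P4ha1 to P4ha2, -0.075 for Plod2 to Plod1 (reversed) and 0.54 for Plod2 to Plod3, by its construction. Causes of the other changes were not tested.

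Replicate numbers do not mark a shared batch in the labels. Deviations of samples with the same number correlated from -0.148 to 0.155 over the 4 comparisons of groups, so the samples were not treated as paired. With a replicate block 49 of 50 estimates kept their call and 0 reversed. The number of enzymes called was 9 for O2 at rest, 8 for O2 under stimulation, 3 for stimulation at 5 % O2, 7 for stimulation at 1 % O2 and 4 for the interaction. Of all 14541 tested genes, that fit called 8730, 8350, 3190, 3320 and 1710 in the same order.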
